A study of Mus musculus with 2 samples.

Results

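The cytosolic ribosomal protein genes encode the protein parts of the ribosome outside mitochondria. They were taken as every feature whose symbol is Rpl or Rps followed by a digit, or Rplp0, Rplp1, Rplp2 or Rpsa, without the 9 symbols that carry -ps and without the 10 Rps6k kinase symbols. This gave 86 of the 31053 features: 46 genes of the large subunit, 31 of the small subunit, 8 paralogues and Rps19bp1, which encodes an Rps19-binding protein and no subunit. Single-cell RNA was counted in MC38 tumours, grown from a mouse colon carcinoma line in the right flank of C57BL/6 mice and treated from day 5 after injection, when tumours averaged 100 mm3. The control group received PBS, is also labelled untreated, and gave 1 library. The SHP099 group received SHP099 hydrochloride, an inhibitor of the phosphatase SHP2, at 5 mg/kg i.g. each day for 14 days and gave the other library. Each group had 6 mice, and the number of tumours pooled per library is not stated. A kit was used for dissociation, and no sorting is described. With 1 library per group there was no replicate check and no test, so every interval below covers counting error only and a difference between libraries cannot be told apart from a difference between treatments.

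A ribosome needs its RNA core and a nearly equal number of copies of each protein, which assemble into the small subunit that reads the messenger and the large subunit that joins amino acids. Messengers of these genes are among the most abundant in a growing cell, and many begin with a run of pyrimidines, the TOP motif, through which growth signalling adjusts their translation. In T cells, activation is known to be followed by ribosome production. Counts are unique molecular identifiers (UMIs), 1 per captured messenger 3′ end, so levels in CPM, the UMIs of a gene scaled to a common class total, were not divided by gene length.

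Promoter sequence is shown first for the members whose values the results turn on, since their ratios between libraries had opposite signs. The RefSeq table of build GRCm38.p6 held 66 of the 86 members, and Rps29 and Rpl30 were not matched. Each line gives 80 bases before and 10 bases after the annotated start, 5′ to 3′ on the gene's strand, with CTTTC or CCGGAAG on either strand in capitals.
Rpl41: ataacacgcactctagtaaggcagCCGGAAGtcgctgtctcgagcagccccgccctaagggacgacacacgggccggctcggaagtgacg
Rpl39: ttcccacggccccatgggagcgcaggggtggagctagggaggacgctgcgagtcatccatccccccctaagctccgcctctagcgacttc
Rps28: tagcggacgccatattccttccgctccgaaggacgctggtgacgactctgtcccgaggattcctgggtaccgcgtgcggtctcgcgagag
Rpl38: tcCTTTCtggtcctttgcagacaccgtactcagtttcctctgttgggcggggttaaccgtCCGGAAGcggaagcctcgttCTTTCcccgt
Rpl37a: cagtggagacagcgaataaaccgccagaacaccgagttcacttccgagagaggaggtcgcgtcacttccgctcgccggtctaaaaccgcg
Rpl37: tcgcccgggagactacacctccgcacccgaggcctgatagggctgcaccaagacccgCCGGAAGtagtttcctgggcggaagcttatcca
Rps2: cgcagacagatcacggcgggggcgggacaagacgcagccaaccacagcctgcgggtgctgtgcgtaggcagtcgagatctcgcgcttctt
Rpl5: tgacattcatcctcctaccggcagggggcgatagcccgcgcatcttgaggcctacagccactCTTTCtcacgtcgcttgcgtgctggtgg
Rplp0: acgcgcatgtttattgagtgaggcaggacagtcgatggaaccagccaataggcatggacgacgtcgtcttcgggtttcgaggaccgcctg
The windows lie at chr10:128549159-128549248 on the minus strand for Rpl41, chrX:37085213-37085302 on the minus strand for Rpl39, chr17:33824553-33824642 on the minus strand for Rps28, chr11:114668500-114668589 on the plus strand for Rpl38, chr1:72711180-72711269 on the plus strand for Rpl37a. The others lie at chr15:5116533-5116622 on the plus strand for Rpl37, chr17:24719983-24720072 on the plus strand for Rps2, chr5:107900448-107900537 on the plus strand for Rpl5, chr5:115559387-115559476 on the plus strand for Rplp0. The first 6 genes were higher and the last 3 lower in the SHP099 library in the 3 largest cell classes.

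CTTTC stands for a pyrimidine run near a start site, and CCGGAAG is an Ets-type site. CTTTC occurred on the gene strand within 50 bases of the start in 32 of the 66 matched members, or 48.5%, against 12.6% of all 27025 genes in the table. CCGGAAG, searched on both strands over 250 bases before and 50 after the start, occurred in 25 members, or 37.9%, against 9.12% of all genes. The motifs can overlap at their ends. Among members higher in SHP099 in all 3 large classes, 3 of 6 matched held CTTTC, and among members lower in all 3 classes 19 of 38 did, which is 50% of each. CCGGAAG occurred in 4 of those 6 and in 13 of those 38. A match is a description of these letters, not a measured binding site.

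The libraries were close in size. The control library held 8245 barcodes with 126218180 UMIs and the SHP099 library 8263 barcodes with 112901642, and 7689 cells of each were kept, with medians of 9185 and 10733 UMIs. The libraries shared 100 barcode sequences. Cells fell into 20 clusters, made without ribosomal protein genes. A class called Xist-negative joined 6 clusters with Xist near 0, each with 4 of 6 listed MC38 genes found, and was given no cell type. It held 4143 control and 4244 SHP099 cells. Macrophage-like and monocyte-like clusters were joined as mononuclear phagocytes, with 2560 and 2643 cells, and 2 T-cell-like clusters held 514 and 396. The summed T cell markers stood at 7087 and 7324 CPM in T cells and at 20.7 and 17.3 CPM in phagocytes. Summed macrophage markers stood at 263 and 334 CPM in T cells and at 32302 and 33250 CPM in phagocytes. Summed monocyte markers did not set these classes apart, at 2460 and 2215 CPM in T cells and 1829 and 1943 CPM in phagocytes. In Xist-negative cells the summed fibroblast markers stood at 1287 CPM in the control library and 1693 CPM in SHP099.

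Ribosomal protein genes gave 34.4% of all UMIs in the control library and 33.7% in the SHP099 library. Their share depended on the cell class more than on the library. It was highest in a cluster that met no marker list and was led by haemoglobin genes and Ctsk, at 39.7% in control and 39.5% in SHP099 of its pooled UMIs. The share was 36.5% and 36.6% in NK-like cells and 36.3% and 35.9% in Xist-negative cells. In T cells it was 33.2% in control (95% exact binomial interval 33.1 to 33.3) and 29.6% in SHP099 (29.6 to 29.7). Endothelial-like cells had 24.2% and 21.4%, a dendritic cell cluster with migratory markers 22.3% and 24.5%, and fibroblast-like cells 21.5% and 21.99%. Mononuclear phagocytes had 19.77% in control (19.74 to 19.79) and 20.02% in SHP099 (19.99 to 20.04). The lowest share, 5.15% and 4.81%, was that of neutrophil-like cells, with only 12 and 4 cells, and 10 and 5 plasmacytoid dendritic-like cells gave 20.9% and 22.3%. Thus Xist-negative, NK-like and T cells lay above the other named classes in both libraries.

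**Figure D1:**
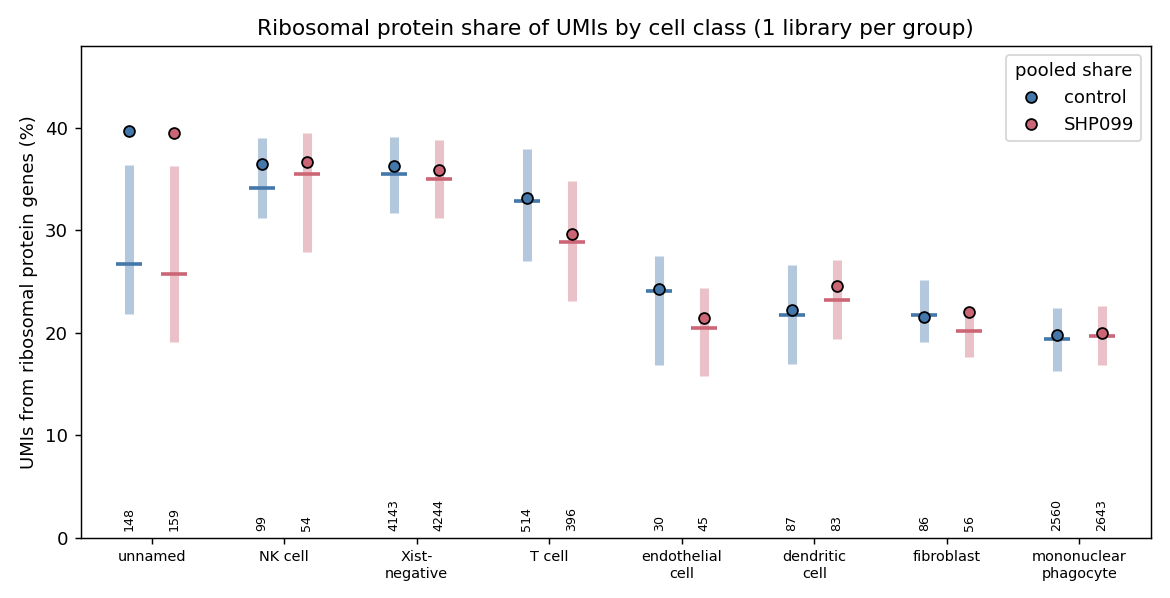
Share of UMIs from the 86 ribosomal protein genes (y axis, %) by cell class (x axis) in the control (blue) and SHP099 (red) libraries. Circles give the pooled share, dashes the median cell and bars the middle 50% of cells, and the numbers at the foot count cells. Classes with fewer than 20 cells in a library are not drawn. The widest gap between libraries in percentage points is that of T cells, at 33.2% against 29.6%.

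The 3 large classes had the same order in both subunits. Large subunit genes held 21.0% of UMIs in control and 20.8% in SHP099 in Xist-negative cells, 18.4% and 16.6% in T cells, and 10.98% and 11.14% in phagocytes. Small subunit genes held 14.99% and 14.80%, 14.4% and 12.7%, and 8.54% and 8.63% in the same classes. In the unnamed cluster the median cell had only 26.7% in control and 25.7% in SHP099, well below the pooled 39.7% and 39.5%, since its cells with many UMIs had the higher shares. Haemoglobin genes stood there at 258 CPM in the control library and 8007 CPM in SHP099.

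Single clusters showed how wide each class was. The 6 Xist-negative clusters ran from 33.4% to 37.8% in control and from 33.7% to 38.1% in SHP099. The lowest was the cluster led by Ptn and Mfap4, which also met 3 fibroblast markers, and the highest was led by Ero1l and Cst6. The 5 phagocyte clusters ran from 13.6% to 20.3% in control and from 12.6% to 21.1% in SHP099, where the lowest held only 17 and 8 cells. The 2 T cell clusters were far apart. The cluster led by Nkg7, Cd3g and Cd8b1 had 34.6% in control (423 cells) and 31.7% in SHP099 (283 cells). The cluster led by Tnfrsf4, Ikzf2 and Icos had 23.4% (91 cells) and 22.7% (113 cells), closer to the phagocytes than to the other T cells.

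**Figure D2:**
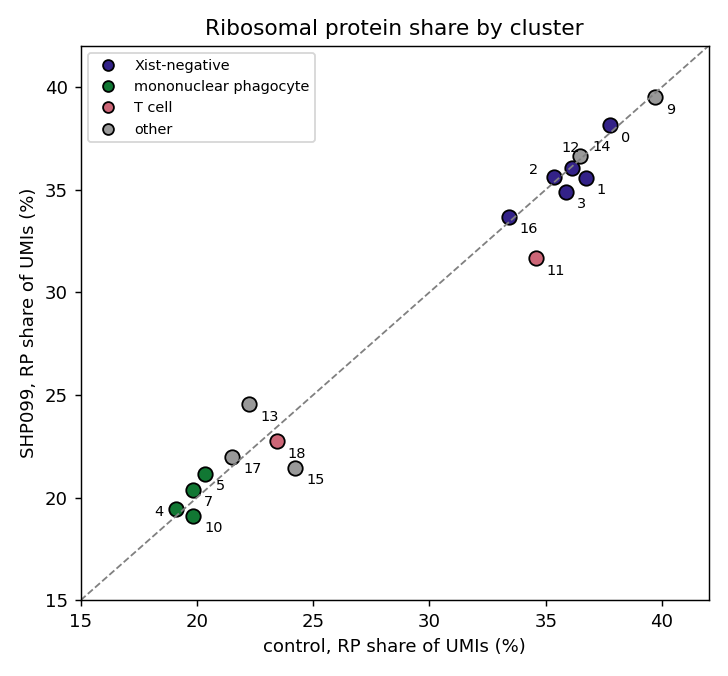
Pooled ribosomal protein share (%) of each cluster in the control library (x axis) and the SHP099 library (y axis), with equality as the dashed line. Both axes start at 15%, and 3 clusters with fewer than 20 cells in a library are not drawn. Cluster 11, the Cd8b1 T cells, lies below the line at 34.6% and 31.7%, and most Xist-negative and phagocyte clusters lie near it.

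Between libraries, the T cell share differed by -3.54 percentage points in SHP099 against control, a log2 ratio of -0.16. The median T cell had 32.9% in control and 28.8% in SHP099. Xist-negative cells differed by -0.42 points, a log2 ratio of -0.02, and phagocytes by 0.25 points, a log2 ratio of 0.02. Of the smaller classes, endothelial-like cells differed by -2.79 points, a log2 ratio of -0.18, and the dendritic cluster by 2.29 points, a log2 ratio of 0.14. When T cells were cut into 3 depth groups of equal size, the share was 28.3% in control and 26.7% in SHP099 in the shallowest group, 33.6% and 31.0% in the middle group and 33.9% and 30.1% in the deepest. The SHP099 value was the lower in every depth group, and the shallowest cells had the lowest share in both libraries. T cell median depth was 2389 UMIs in control and 2030 in SHP099, and haemoglobin genes stood at 23.0 and 322 CPM. By cluster, haemoglobin genes stood at 25.5 and 17.5 CPM in the Cd8b1 cluster and at 5.22 and 1366 CPM in the Tnfrsf4 cluster. Mitochondrial genes held 2.32% and 2.29% of T cell UMIs but 2.183% and 3.098% of phagocyte UMIs. Malat1, a nuclear RNA, stood at 21925 and 26427 CPM in T cells, 17884 and 24439 CPM in Xist-negative cells, 23765 and 24023 CPM in phagocytes and 17872 and 32020 CPM in endothelial-like cells. In NK-like cells and the dendritic cluster it was the lower in SHP099, at 20408 and 20169 CPM and at 30957 and 29078 CPM. The part of depth, haemoglobin, mitochondrial RNA and Malat1 in these differences was not tested.

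The T cell gap shrank to a log2 ratio of -0.0934 when both clusters counted alike, and stood at -0.128 in the Cd8b1 cluster alone. The phagocyte ratio turned to -0.000581 with clusters counted alike and to -0.0205 without members of up to 100 codons. Counting alike gives the phagocyte cluster of 17 and 8 cells, at 13.6% and 12.6%, the weight of each larger one. The clusters led by Cd72, Mmp12 and Ly6c2 were higher in SHP099, at 19.1% and 19.5%, 20.3% and 21.1%, and 19.8% and 20.4%. The Cx3cr1 cluster, with 57 and 234 cells, was lower at 19.9% and 19.1%.

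Set gene by gene against control, most members were slightly lower in SHP099. Of 86 members, 83 reached 10 CPM in at least 1 library in each of the 3 large classes, and Rpl3l, Rpl10l and Rpl39l did not. None of the 83 was 1.5-fold apart between libraries in any of the 3 classes. Over all measured features, 1.14% were at least 1.5-fold higher in SHP099 and 0.227% lower in Xist-negative cells, 4.28% and 1.84% in phagocytes, and 11.1% and 7.35% in T cells. Those shares also contain genes with far fewer UMIs than the members. With clusters counted alike, where the phagocyte cluster of 17 and 8 cells weighs as much as each other, 1 member passed 1.5-fold in phagocytes. The members' median log2 ratio was -0.06 in Xist-negative cells, where that of all 7038 measured features was 0.02. In phagocytes it was -0.02 against 0.05 over 6802 features, and it turned to 0.00841 with clusters counted alike and to 0.0304 with cells assigned by their own markers. In T cells it was -0.19 against 0.07 over 6870. Members with a ratio below 0 numbered 67 of 83 in Xist-negative cells, 53 in phagocytes and 74 in T cells. Of all measured features, 3117 of 7038, 2823 of 6802 and 2905 of 6870 were below 0 in the same classes.

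The direction partly followed the size of the encoded protein. In all 3 large classes 7 members were higher in SHP099, and 49 were lower in all 3, while 27 differed in sign among classes. The 7 were Rpl41 (25 codons), Rpl39 (51), Rps29 (56), Rps28 (69), Rpl38 (70), Rpl37a (92) and Rpl37 (97), and the 49 had 106 to 419 codons. Only 11 of the 83 measured members had 97 codons or fewer. Of these, Rps21 (83 codons) and Rps27, Rps27l and Rps27rt (84 each) differed in sign among classes. So did longer members, up to Rpl3 with 403 codons. The counting interval lay above 0 in all 3 classes for 5 of the 7 and below 0 for 34 of the 49. The share of all measured features with 1 sign in all 3 classes is not given, so these counts lack that background. The classes also share their libraries. Class by class, the interval lay above 0 for 2730 of 7038 features in Xist-negative cells, 1738 of 6802 in phagocytes and 656 of 6870 in T cells. It lay below 0 for 2118, 1088 and 331.

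Rps28 (ENSMUSG00000067288), a small subunit protein and the one with the largest ratio of the 7, stood at 4903 CPM in the control library and 6249 CPM in SHP099 in Xist-negative cells, 3049 and 3834 CPM in phagocytes, and 3775 and 4327 CPM in T cells. Its log2 ratio was 0.35 (0.34 to 0.36), 0.33 (0.31 to 0.35) and 0.20 (0.14 to 0.25). Rps29, a zinc-binding protein of the small subunit, stood at 6703 and 7778 CPM in Xist-negative cells, 7647 and 8538 in phagocytes and 6631 and 7007 in T cells. The SHP099 library was thus the higher in each class for both genes, and least so in T cells.

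Rpl39, which lines the tunnel through which the new protein leaves the large subunit, stood at 4008 CPM in the control library and 4615 CPM in SHP099 in Xist-negative cells, 3473 and 4000 in phagocytes, and 6835 and 7098 in T cells. Rpl41 (ENSMUSG00000093674), the shortest member, had the most UMIs over all cells, though fewer than Rps29 in phagocytes: 16834 and 18676 CPM in Xist-negative cells, 7372 and 8270 in phagocytes, and 9287 and 9575 in T cells. Rpl38, a large subunit protein known in mice for its role in translating Hox messengers, stood at 3965 and 4409, 2516 and 2884, and 3910 and 4254 CPM in the same order. Rpl37 and Rpl37a, zinc-binding proteins of the large subunit, were higher in SHP099 in Xist-negative cells (Rpl37a 8532 and 9142 CPM) and phagocytes (5040 and 5539). In T cells the interval of both held 0, with Rpl37 at 5790 and 5807 CPM and Rpl37a at 7366 and 7382.

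**Figure D3:**
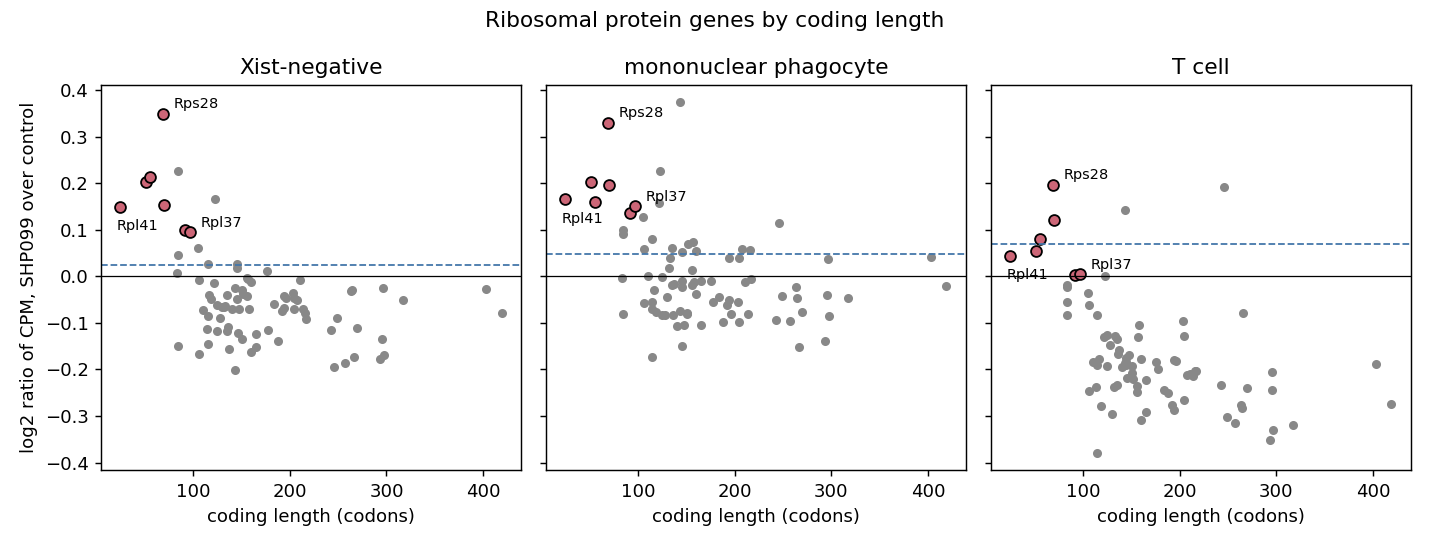
Log2 ratio of CPM in SHP099 over control (y axis) against coding length in codons (x axis) for 83 ribosomal protein genes in 3 cell classes. Red points are the 7 genes higher in all 3 classes, grey points the others, and the dashed line is the median of all measured features. The 7 red points lie above 0 in each panel, with Rps28 at 0.35, 0.33 and 0.20, while Rps19bp1 at 0.37 and Rpl35 at 0.23 are as high in phagocytes.

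Over the 83 genes, Spearman's rho between coding length and the log2 ratio was -0.40 in Xist-negative cells, -0.37 in phagocytes and -0.56 in T cells. With transcript length in place of coding length, rho was -0.395, -0.384 and -0.390 in the same order. These describe genes that share their libraries and their depth and are no replicates of a treatment. For other genes of up to 100 codons the median log2 ratio was -0.02 over 196 genes in Xist-negative cells, 0.02 over 207 in phagocytes and 0.10 over 205 in T cells. In T cells 68.8% of them were above 0, against 56.4% to 61.8% in the 4 groups of longer genes. In Xist-negative cells 46.4% were above 0 and in phagocytes 50.7%.

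Because the 7 genes were chosen in these 3 classes, their joint share was followed in the other classes. Summed, they held 15.2% of all ribosomal protein UMIs in control and 17.2% in SHP099 in Xist-negative cells, 16.7% and 18.7% in phagocytes, and 13.1% and 15.3% in T cells. In the 7 classes not used to choose them this share of the ribosomal protein UMIs was also higher in SHP099 each time. It was 14.0% and 16.2% in NK-like cells, 13.9% and 16.6% in the dendritic cluster, 15.49% and 17.03% in endothelial-like cells, and 16.3% and 17.2% in fibroblast-like cells. Of all UMIs, however, the 7 genes held 3.75% and 3.65% in endothelial-like cells, where the other members went from 20.5% to 17.8%. All of the 7 but Rpl41 had a log2 ratio below 0 there. In fibroblast-like cells the 21 members of 25 to 119 codons had a median log2 ratio of -0.02. The 20 members of 208 to 419 codons had 0.03 in that class. The 7 classes also include neutrophil-like cells, with only 508 and 135 ribosomal protein UMIs, and 10 and 5 plasmacytoid dendritic-like cells. All classes of a group come from 1 library, so these are not independent of each other, and a difference made in preparing or sequencing the libraries was not tested. In T cells only 3 of the 7 stayed above 0 when scaled by the median ratio of all genes, and 5 of 7 when each cell was drawn down to 2000 UMIs.

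**Figure D4:**
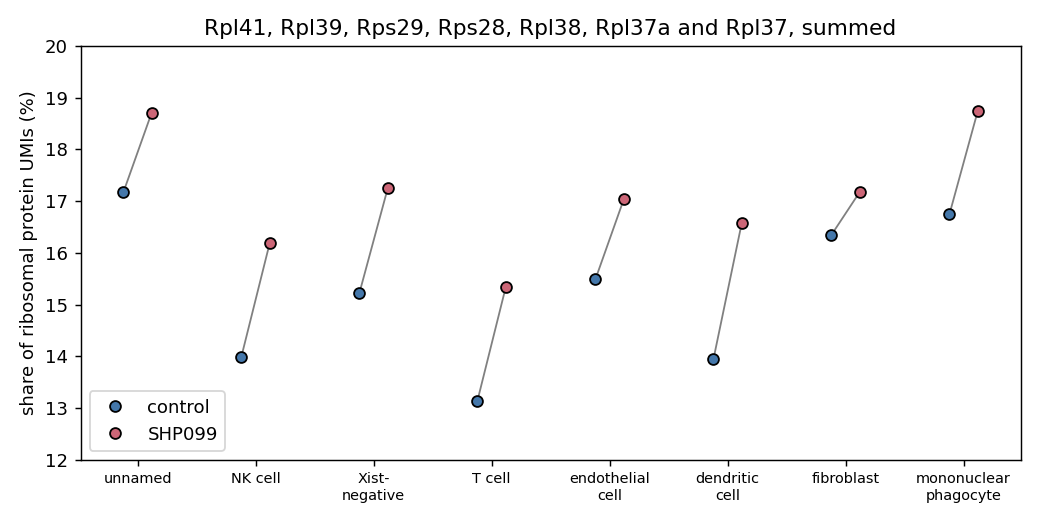
Share of all ribosomal protein UMIs (y axis, %) held by Rpl41, Rpl39, Rps29, Rps28, Rpl38, Rpl37a and Rpl37 together, by cell class (x axis) in the control (blue) and SHP099 (red) libraries. The y axis starts at 12%. The SHP099 point is the higher in each class drawn, at 17.2% against 15.2% in Xist-negative cells and 15.3% against 13.1% in T cells, which with phagocytes were used to choose the genes.

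Among the members lower in SHP099 in each large class, the largest gaps were in T cells. Rpl30 (ENSMUSG00000058600), a large subunit protein of 115 codons, went from 2019 CPM in control to 1553 CPM with SHP099, a log2 ratio of -0.38 (-0.47 to -0.29). This ran against the size trend, since the 21 members of 25 to 119 codons had a T cell median log2 ratio of -0.05. The 20 members of 208 to 419 codons had -0.24. Rps2, a small subunit protein, stood at 3700 and 2897 CPM, a log2 ratio of -0.35 (-0.42 to -0.29), and Rpl8, of the large subunit, at 3471 and 2788 CPM. Rps6, the small subunit protein that S6 kinase phosphorylates, stood at 4271 and 3466 CPM. All 4 were also lower in SHP099 in Xist-negative cells and phagocytes, by less: Rpl30 stood at 3045 and 2754 CPM in the first and at 1195 and 1059 CPM in the second.

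The stalk proteins, which recruit elongation factors to the large subunit, were lower in SHP099 in each of the 3 large classes. In the dendritic cluster their log2 ratios were 0.08, 0.24 and 0.07. In T cells Rplp0 stood at 5725 CPM in the control library and 4585 CPM in SHP099, Rplp1 at 4361 and 3698, and Rplp2 at 4584 and 4014. In Xist-negative cells the log2 ratios of these 3 were only -0.05, -0.11 and -0.08. Rpl5 and Rpl11, which with 5S RNA can bind Mdm2 and so link ribosome assembly to p53, stood at 1235 and 982 CPM and at 3749 and 3266 CPM in T cells. Rpsa, a small subunit protein also known as the laminin receptor precursor, stood at 3387 and 2860 CPM there.

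Some members went against the general direction. Rps27, a small subunit protein of the zinc-ribbon kind, was higher in SHP099 in Xist-negative cells at 6294 and 7358 CPM, and in phagocytes at 4360 and 4643, but stood at 8802 and 8667 CPM in T cells. Rpl35 was likewise higher in Xist-negative cells, at 4707 and 5280 CPM, and in phagocytes, at 2363 and 2767 CPM, while both T cell values were 3291 CPM. Rps19bp1 had the largest phagocyte ratio, 0.37 (0.21 to 0.55), at 40.8 and 53.1 CPM, and was lower in Xist-negative cells at 119 and 104 CPM. In phagocytes Rpl7a stood at 1035 and 932 CPM and Rps16 at 3157 and 2845 CPM, which with Rpl30 were the lowest ratios there.

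Within the ribosomal protein pool, the classes used the genes in different proportions, and nearly alike in both libraries. In CPM, 4 of 83 members were at least 1.5-fold higher in T cells than in Xist-negative cells in both libraries and 11 lower, against 23.2% and 30.2% of 7759 features. In phagocytes 0 were higher and 65 lower than in Xist-negative cells, against 24.6% and 34.1% of 7880 features. As shares of the pool, which set the total aside, 8 members were 1.5-fold higher and 7 lower in T cells than in Xist-negative cells, and 6 higher and 3 lower in phagocytes. The log2 ratio had the same sign in both libraries for 77 of 83 members in the T cell contrast and 81 in the phagocyte contrast. When cells were assigned by their own markers, the T cell count of 15 fell to 6.

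Rps12 (ENSMUSG00000061983), a small subunit protein, set Xist-negative cells apart most from T cells and phagocytes. It stood at 8040 CPM in the control library and 7681 CPM in SHP099 there, 1921 and 1946 CPM in phagocytes and 2836 and 2404 CPM in T cells. As a share of the pool this was 2.22% and 2.14%, 0.972% and 0.972%, and 0.855% and 0.811%. NK-like cells, with a total share near that of Xist-negative cells, had Rps12 at 3406 and 3379 CPM, endothelial-like cells at 2781 and 2165, and fibroblast-like cells at 2799 and 2305. The dendritic cluster had 1898 and 2479 CPM and the unnamed cluster 9287 and 8584 CPM. The high level of Rps12 was thus seen in Xist-negative cells and the unnamed cluster, and the 6 named classes given here lay well below both.

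T cells held more of their pool in Rps15a, at 2.44% and 2.23% against 1.32% and 1.28% in Xist-negative cells and 1.25% and 1.20% in phagocytes. Rpl39 held 1.76% and 2.00% of the pool in phagocytes and 2.17% and 2.44% in NK-like cells. It held 2.06% and 2.39% of the T cell pool against 1.10% and 1.29% in Xist-negative cells. Rpl41 ran the other way, with 2.80% and 3.23% in T cells against 4.64% and 5.21% in Xist-negative cells, and so did the stalk protein gene Rplp1, with 1.31% and 1.25% against 2.13% and 1.99%. Phagocytes stood out for Rps29, at 3.87% and 4.27% of their pool against 1.85% and 2.17% in Xist-negative cells and 2.00% and 2.36% in T cells. Rps9, a small subunit protein known for the accuracy of decoding, held 1.62% and 1.47% of the pool in the dendritic cluster. In plasmacytoid dendritic-like cells it held 1.79% and 2.03%. It held 1.49% and 1.51% of the phagocyte pool against 0.741% and 0.728% in Xist-negative cells. Rpl8 and Rps2 held less there, at 0.891% and 0.823% and at 1.07% and 0.959%, against 1.47% and 1.31% and 1.70% and 1.52%.

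**Figure D5:**
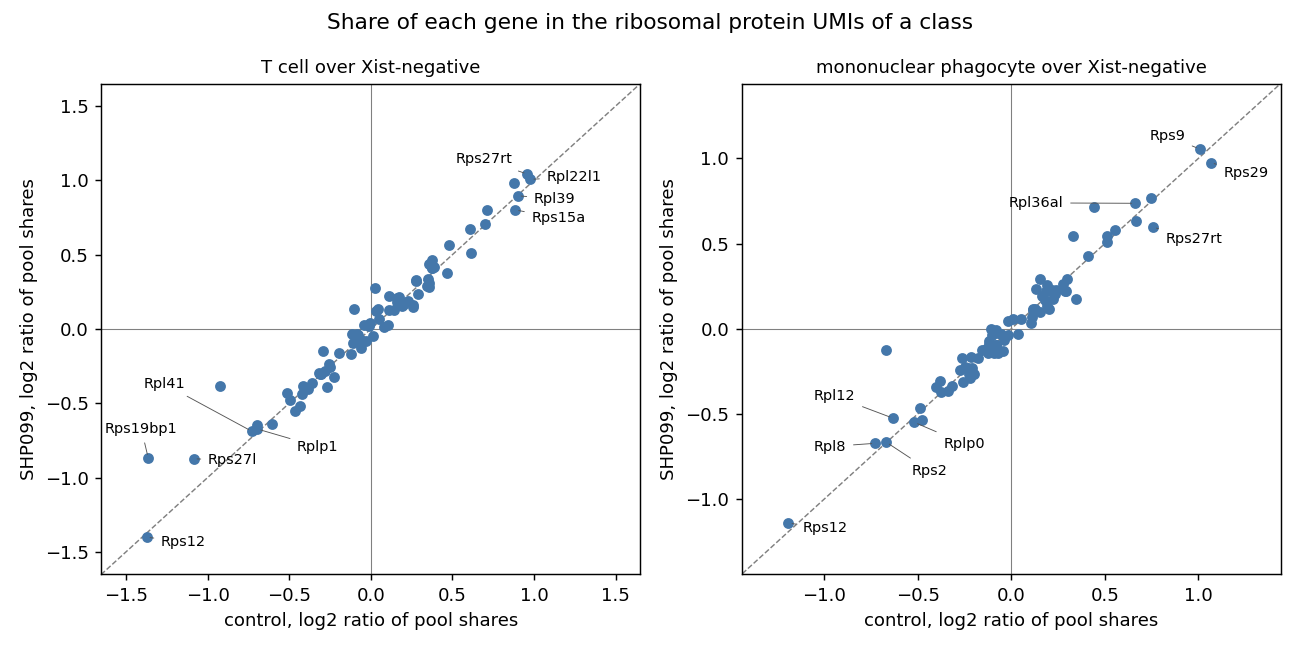
Log2 ratio of each gene's share of the ribosomal protein pool between 2 cell classes, in the control library (x axis) and the SHP099 library (y axis), for 83 genes. The dashed line is equality. Points lie along it, with Rps12 lowest in both panels at -1.37 and -1.40 for T cells and -1.19 and -1.14 for phagocytes.

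The balance between paralogues differed from class to class. Reads of near-identical copies can be assigned to either gene or be lost, so their levels are uncertain, and this holds for Rps27rt, a copy of Rps27. Rpl22l1 and Rpl22, an RNA-binding pair of which Rpl22 is needed for T cell development in mice, were close to equal in T cells: Rpl22l1 gave 50.5% of their joint UMIs in control (49.1 to 51.9) and 50.8% in SHP099 (49.1 to 52.6). In Xist-negative cells it gave 34.6% and 35.9%, and in phagocytes 33.4% and 37.3%. NK-like cells had 53.1% and 59.3% and fibroblast-like cells 65.8% and 55.1%. Rps27l, a known p53 target, gave 4.48% and 4.30% of its joint UMIs with Rps27 in T cells and 3.58% and 4.10% in NK-like cells, against 13.2% and 10.5% in Xist-negative cells and 13.1% and 13.2% in phagocytes. The 2 lymphocyte classes thus had low shares of this paralogue in both libraries, though not alone. Plasmacytoid dendritic-like cells had 5.17% and 3.09%, on 18 and 6 Rps27l UMIs. Neutrophil-like cells had 5% and 0%, on 2 and 0 UMIs. Rps27rt gave 7.33% and 7.35% with Rps27 in T cells, and 5.86% and 5.21% in Xist-negative cells.

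The 3 members under 10 CPM in the 3 large classes are genes known from testis or muscle. Rpl10l, a testis paralogue, had 1 UMI in all, in a Xist-negative cell of the SHP099 library. Rpl3l, known from heart and skeletal muscle, had 35 UMIs in control and 21 in SHP099 in phagocytes, against 1 and 9 in Xist-negative cells, whose UMI totals were several times larger. Rpl39l, known from testis, stood at 24.5 and 35.3 CPM in fibroblast-like cells. These were 16 and 18 UMIs, or 0.585% (0.334 to 0.948) and 0.889% (0.528 to 1.40) of the UMIs it shared with Rpl39. In Xist-negative cells its 8 and 5 UMIs were 0.00192% and 0.00118%. These few UMIs may be reads of a similar sequence, which was not tested.

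Other genes of translation gave the setting. Fau, which encodes a small subunit protein fused to a ubiquitin-like protein and has a symbol outside the rule, was chosen here after its values were seen. It stood at 4818 and 4729 CPM in Xist-negative cells, 4760 and 4487 in phagocytes, and 6076 and 5473 in T cells. Of 23 other messengers counted as TOP-motif companions, Fau included, 20 were lower in SHP099 in Xist-negative cells, 14 in phagocytes and 20 in T cells, with median log2 ratios of -0.11, -0.03 and -0.15. Of all measured features 3117 of 7038, 2823 of 6802 and 2905 of 6870 were lower in the same classes. The counting interval lay below 0 for 20, 11 and 13 of the 23, against 2118, 1088 and 331 of those measured features. The elongation factor gene Eef1b2 was the lowest of them in T cells, at 805 and 542 CPM, and Eef1a1 followed at 5904 and 4459 CPM.

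The initiation factor median was -0.12 in Xist-negative cells, 0.08 in phagocytes and 0.04 in T cells, with 22 of 29, 8 of 28 and 11 of 29 measured genes lower. Ribosome assembly genes had medians of -0.15, 0.13 and 0.07, with 27 of 31, 5 of 27 and 13 of 29 lower. Over all measured features 3117 of 7038, 2823 of 6802 and 2905 of 6870 were lower, so the T cell counts of both lists lay near that share. The counting interval of assembly genes lay below 0 for 25 genes in Xist-negative cells, 0 in phagocytes and 1 in T cells, and above 0 for 1, 5 and 0. For all measured features it lay below 0 for 2118, 1088 and 331, and above 0 for 2730, 1738 and 656. Nop58 and Nolc1 had the highest ratios of them in phagocytes, and Ltv1 and Fbl the lowest. In phagocytes Nop58 and Nolc1, nucleolar proteins of ribosomal RNA processing, stood at 38.1 and 54.0 CPM and at 24.3 and 32.5 CPM, while in Xist-negative cells they stood at 184 and 162 CPM and at 89.7 and 71.9 CPM. Mitochondrial ribosomal protein genes had medians of -0.06, 0.06 and 0.07. Genes of translation signalling had medians of 0.02, 0.06 and -0.05, with 5 of 8, 7 of 10 and 5 of 11 measured genes above 0. The lowest in Xist-negative cells and phagocytes was Eif4ebp1, which encodes an inhibitor of the cap-binding factor, at 627 and 496 CPM and at 248.8 and 180.5 CPM. The highest were Pdcd4 in Xist-negative cells, at 8.11 and 12.2 CPM, and the kinase gene Rps6ka1 in phagocytes, at 31.2 and 48.3 CPM.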

How the data were processed

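Single cells of 1 control and 1 SHP099 tumour library were captured with the 10x 3′ protocol and read as 150-bp pairs, per the labels' protocols. The authors deposited 1 filtered matrix of UMI counts per library. Per the submitters' processing notes these come from Cell Ranger and the mouse builds mm10 and GRCm38. Their headers carry software version 3.1.0, and no source used here names the gene annotation. The counts were used as deposited. Features sharing a symbol (71) were kept apart by identifier.

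Barcodes needed 200 genes and at most 20% mitochondrial UMIs. Too few genes removed 99 control and 103 SHP099 barcodes, and too many mitochondrial UMIs removed 194 and 260. Barcodes over the mitochondrial limit had 8.37% and 8.83% of UMIs from ribosomal protein genes. Scrublet in scanpy 1.11.5 called 263 and 211 doublets (3.31% and 2.67%, with 6.36% and 6.32% expected), which were removed. Doublets of like cells remain.

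Both libraries were clustered together on 2000 variable genes, without ribosomal protein and translation genes, with 30 components, 15 neighbours and Leiden resolution 1. Clusters were named from marker lists where 3 or more markers reached 10% of the cells at a level 2 times that of other clusters. Clusters with Xist under 0.1 of the median cluster stayed unnamed by type. After seeing the data, that class was also required to show at least 3 listed MC38 genes, which moved a neutrophil-like cluster. The T cells and Xist-negative cells were set side by side within each library, and control and SHP099 within each class of at least 200 cells per library.

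Shares are pooled UMIs with 95% exact binomial intervals. Gene values are CPM of the class total, with a prior of 0.5 CPM in log2 ratios and exact Poisson intervals, and "measured" means 10 CPM in either library. All intervals cover counting error only, and UMIs of a cell are not independent draws. Apart means 1.5-fold. Coding length is the median over the principal transcripts of GENCODE M21, and promoters came from RefSeq. The calculations were tested on simulated data.

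Named genes were the 3 largest and 3 smallest ratios per class at 50 CPM or more, the 5 largest and 5 smallest pool differences, the most and least abundant members, paralogues, and a fixed set of well-known members. The 7 short genes and members named for a role outside these were chosen after their values were seen. The members and lists were chosen with earlier results of these data known. Some genes that the rule names are not reported here. The closing section gives the alternatives tried.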

Additional observations from a re-analysis of the deposited data

Results flagged for a closer look

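The ribosomal protein share of UMIs differed in direction or size between the 3 large cell classes under the same contrast of SHP099 against control. The log2 ratio was -0.163 in T cells (33.2% in control and 29.6% in SHP099), -0.0166 in Xist-negative cells (36.3% and 35.9%) and 0.0180 in mononuclear phagocytes (19.77% and 20.02%). Within depth groups the Xist-negative share was lower in SHP099 only in the deepest, at 36.9% in control and 36.5% in SHP099. With 1 library per group the difference between classes was not tested.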

How the results depend on the processing

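No paired analysis was possible because each group had 1 library, so no replicate was left out either. Values below are log2 ratios of the ribosomal protein share.

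For SHP099 against control, Xist-negative cells went from -0.0166 to -0.0160 with a 10% mitochondrial limit, -0.0120 with cells assigned by own markers, -0.00829 with each cell alike, -0.00886 without mitochondrial UMIs, -0.0130 at 2000 UMIs a cell, -0.0159 without paralogues and Rps19bp1, -0.00880 with clusters alike and -0.0582 without members of up to 100 codons. Phagocytes went from 0.0180 to 0.0679 with own markers, 0.0307 with each cell alike, 0.0316 without mitochondrial UMIs, 0.0236 at 2000 UMIs, 0.0231 at resolution 0.5 and 0.0291 without the Cx3cr1 cluster. They turned to -0.000581 with clusters alike and to -0.0205 without members of up to 100 codons. T cells went from -0.163 to -0.135 with doublets kept, -0.134 with own markers, -0.172 at resolution 0.5, -0.0934 with clusters alike, -0.208 without members of up to 100 codons and -0.128 in the Cd8b1 cluster alone.

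For T cells against Xist-negative cells in control, -0.129 became -0.0865 with doublets kept, -0.0999 with own markers, -0.140 without mitochondrial UMIs, -0.0550 at 2000 UMIs, -0.107 without members of up to 100 codons and -0.0691 for the Cd8b1 cluster. In SHP099, -0.275 became -0.282 with a 10% mitochondrial limit, -0.204 with doublets kept, -0.221 with own markers, -0.280 with each cell alike, -0.295 without mitochondrial UMIs, -0.202 at 2000 UMIs, -0.279 without paralogues and Rps19bp1, -0.285 at resolution 0.5, -0.256 without members of up to 100 codons and -0.180 for the Cd8b1 cluster.

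Members 1.5-fold apart between libraries numbered 2 in phagocytes and 1 in T cells with no minimum, and 1 in phagocytes with clusters alike. The pool count of 15 became 6 with own markers. The phagocyte member median turned from -0.0195 to 0.00841 with clusters alike and to 0.0304 with own markers. Clusters alike gives the phagocyte cluster of 17 and 8 cells the weight of each larger one. The causes were not tested. The settings that leave out members of up to 100 codons, the Cd8b1 and Cx3cr1 clusters, and those of the pool count were chosen after seeing the data. At 2000 UMIs a cell, 188 control and 196 SHP099 T cells were left out. Scaling by the median ratio shifts every log2 ratio by 0.02, 0.05 and 0.07 in Xist-negative cells, phagocytes and T cells. Depth limits T cells most, with 1523435 and 1034423 UMIs.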
